A study of Arabidopsis thaliana with 8 samples.

Results

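For each annotated *Arabidopsis thaliana* transcript, sequencing reads were counted in a window of 500 bases that begins where the transcript model ends. Of 31109 loci, each represented by the window of its lowest-numbered transcript model, 1155 had a mean of 500 or more raw counts over the 2 wild type libraries, and these read-rich windows are described here. They were chosen on measured wild type counts, so their high wild type level is the selection itself, and comparisons of a mutant with wild type are given as a description of which windows moved. The members just inside the limit were AT1G58643 with 501 and 501 wild type counts, AT4G37260 with 521 and 483 and AT4G19112 with 512 and 492. The windows just outside it were AT1G67780 with 493 and 506, AT4G29250 with 543 and 456 and AT1G06645 with 509 and 489.

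A plant mRNA ends where the nascent transcript is cut and a poly(A) tail is added, a step carried out by a complex that includes the cleavage and polyadenylation specificity factor CPSF30. Reads downstream of a transcript's annotated end can come from a transcript that was not cut there, but the *Arabidopsis* genome is compact, and the same bases often belong to the transcript of a neighbouring gene. Where 2 genes point at each other, the window behind the end of one lies over the end of the other.

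The study asked whether N6-methyladenosine (m6A) in mRNA and its binding by CPSF30 affect where transcripts end, in seedlings of accession Col-0 collected at an age of 9 days. The groups were *fip37L*, *cpsf30-3*, *cpsf30-1* and wild type (WT), each with 2 replicate libraries. *fip37L* carries the *fip37-4* mutation in a component of the m6A writer complex together with a LEC1:FIP37 transgene, whose promoter is active in embryos, so FIP37 is supplied to the embryo rather than to the seedling. *cpsf30-3*, an insertion line of the GABI collection, lacks the long isoform CPSF30L with its m6A-binding YTH domain, *cpsf30-1* lacks both the long and the short isoform, and WT is Col-0 with neither mutation. *fip37-4* derivatives were grown on a richer, sucrose-containing medium and picked under a microscope, while the medium of the other lines in these libraries is not stated, so medium and genotype cannot be told apart for *fip37L*. Each mutant is a single line, and nothing states whether the replicates were grown separately or how many seedlings were pooled. The p-values therefore measure only the spread between these libraries.

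The libraries held 4138533 to 6039296 counts over the 31109 windows. The read-rich windows took 77.8% to 79.1% of them in every library, and the 10 richest windows alone 23.5% to 25.8%. A quasi-likelihood count model (edgeR) was fitted to the 12583 windows that passed a filter on low counts, among them all 1155 members. A window was called where the change was at least 2-fold with a Benjamini-Hochberg adjusted p under 0.05. The windows of the targeted genes lie downstream of their models. The FIP37 window AT3G54170 (149 and 105 counts in *fip37L*, 56 and 37 in WT) lies over exons of CDKB1;1 on the same strand and checks no label. The CPSF30 window of the lowest-numbered model held 0 to 4 counts in every library, while that of the shorter model AT1G30460.2, which reaches back into the annotated gene, had 16 and 17 *fip37L* counts, 4 and 2 *cpsf30-3* counts and none in either *cpsf30-1* library, against 19 and 14 in WT. In that window all 4 *cpsf30* libraries lay below those of *fip37L* and WT.

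Nearly all read-rich windows lay over another annotated gene. Of the 1146 members that could be placed on the reference annotation, 1111 (97.0%) shared at least 1 base with another gene, against 85.9% of the other tested windows. The overlap was with opposite-strand genes only in 849 members (73.5%), against 52.3% of the other tested windows and 31.0% of all loci. The exact 95% binomial interval of the member share, 70.9% to 76.0%, treats windows as independent, which they are not in full. A same-strand gene was overlapped by 262 members (22.7%), 35 (3.03%) were free of other genes and 9 were not placed. A median of 410 of the 500 bases were exon of the neighbour, 202 windows were exonic throughout, and the overlap covered 1055 different genes.

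The neighbour was usually the next locus number. The overlapping gene was the next higher protein-coding locus for 553 windows and the next lower for 524, within 2 steps for 12 and further away or not protein-coding on both sides for 22. Whether these libraries were counted by strand is not stated, although the windows of AT2G05475 and AT2G05480, on opposite strands, held identical counts in every library. The overlapping gene lay on the opposite strand for 941 windows. In 253 of these the annotated 3′ end of the facing gene fell inside the window, and in 688 it reached past the window into the locus whose end defined it. A stop codon of a facing coding gene lay within the window in 826 of 933 members with such a gene (88.5%), against 77.5% in the other tested windows. The reverse window, behind the end of the facing gene, was compared as a description, since only the member was chosen for its counts. Over 935 such pairs the median WT mean was 948 counts in the member and 119.5 in the reverse window, 151 reverse windows were members themselves, and 73 held more than the member.

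The coding ends that 6 of the 10 richest windows contain are shown here because they place the window on the neighbour's transcript. They were read from the RefSeq genome TAIR10.1, each 5′ to 3′ on the strand of the facing gene, which is opposite to the strand of the counted locus, and capitals mark the stop codon. CAB1 and CAB3 encode chlorophyll a/b-binding proteins of the photosystem II antenna, LHCA4 an antenna protein of photosystem I, LHCB6 a minor antenna protein of photosystem II, and PSBR and PSBX subunits of photosystem II. The stretches lie at chr1:10478845-10478874 (plus strand, in the window of AT1G29940), chr1:10472443-10472472 (minus, AT1G29900), chr3:17493622-17493651 (minus, AT3G47460), chr1:5446685-5446714 (minus, AT1G15810), chr1:29736752-29736781 (plus, AT1G79050) and chr2:2587868-2587897 (minus, AT2G06510).
CAB1: ttcgccaccaactttgttcccggaaagTGA
CAB3: ttcgcaaccaactttgttcccggaaagTGA
LHCA4: cacaacactattgtccaaaccttcaacTAA
LHCB6: aaaacgcctctcggtgctcttggtttgTGA
PSBR: gtgtacaacacaagtgctttggctcagTAA
PSBX: tccaactttgaccctgtcaagagaaccTAA

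The windows were also searched for sequence features. The canonical poly(A) signal AATAAA was present on the strand of the counted locus in 33.0% of placed members, on the other strand in 28.3% and on either in 50.4%. In the other tested windows these shares were 38.3%, 34.5% and 57.9%, and over all placed windows 45.0%, 45.1% and 67.5%. Among members with opposite-strand genes only, 51.1% held the motif on either strand, against 52.7% of the other tested windows of that class. The median GC content was 39.0% in members, 37.2% in the other tested windows and 34.6% over all placed windows.

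The richest window, AT1G29940 (locus NRPA2, an RNA polymerase I subunit), spans chr1:10478507-10479006 on TAIR10.1 and is exonic for CAB1 over all 500 bases. It held 436473 and 284865 counts in *fip37L*, with 366791 and 302564 counts in *cpsf30-3* and 289454 and 324548 in *cpsf30-1*, against 353402 and 328201 in WT. Raw counts follow library depth, and after TMM scaling to CPM, which sets each count against the depth of its library, the means were 72810 ± 6050 in *fip37L*, 70840 ± 712 in *cpsf30-3* and 66260 ± 2420 in *cpsf30-1*, against 66920 ± 538 in WT (SD, n = 2 each), so that all 4 lines lay within 1.10-fold. AT1G29900 (CARB), facing CAB3 at chr1:10472212-10472711, held 190587 and 120769 *fip37L* counts, 193847 and 166851 *cpsf30-3* counts and 145956 and 167570 *cpsf30-1* counts, against 200174 and 187799 in WT, and the line means lay within 1.22-fold.

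The same pattern held down the list. AT5G54280 (ATM2, a myosin) faced LHCB3, AT3G47460 faced LHCA4, AT1G15810 faced LHCB6 and AT1G79050 (RECA1) faced PSBR, with WT means of 160740, 120522, 87758.5 and 84138 counts and folds between the highest and the lowest line of 1.15, 1.10, 1.29 and 1.20. AT1G29920 (CAB2), the only one of the 10 that overlaps no other gene, lies between CAB2 and CAB3 and held 91005 and 65843 counts in *fip37L*, with 83346 and 77888 counts in *cpsf30-3* and 62712 and 74581 in *cpsf30-1*, against 89094 and 92661 in WT. Another 3 of the 10 differed a little more between lines. AT2G05060, facing LHCB2.2, spanned 1.36-fold. AT2G06510 (RPA1A), facing PSBX, averaged 14680 ± 731 CPM in *fip37L*, 12230 ± 496 in *cpsf30-3* and 9597 ± 364 in *cpsf30-1*, against 12110 ± 210 in WT (SD, n = 2 each). AT2G39725, facing RCA, the activase that keeps Rubisco active, averaged 18100 ± 1010 CPM in *fip37L*, 13310 ± 619 in *cpsf30-3* and 15030 ± 487 in *cpsf30-1*, against 11860 ± 324 in WT. None of the 10 reached 2-fold in any of the 6 comparisons between lines.

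**Figure D1:**
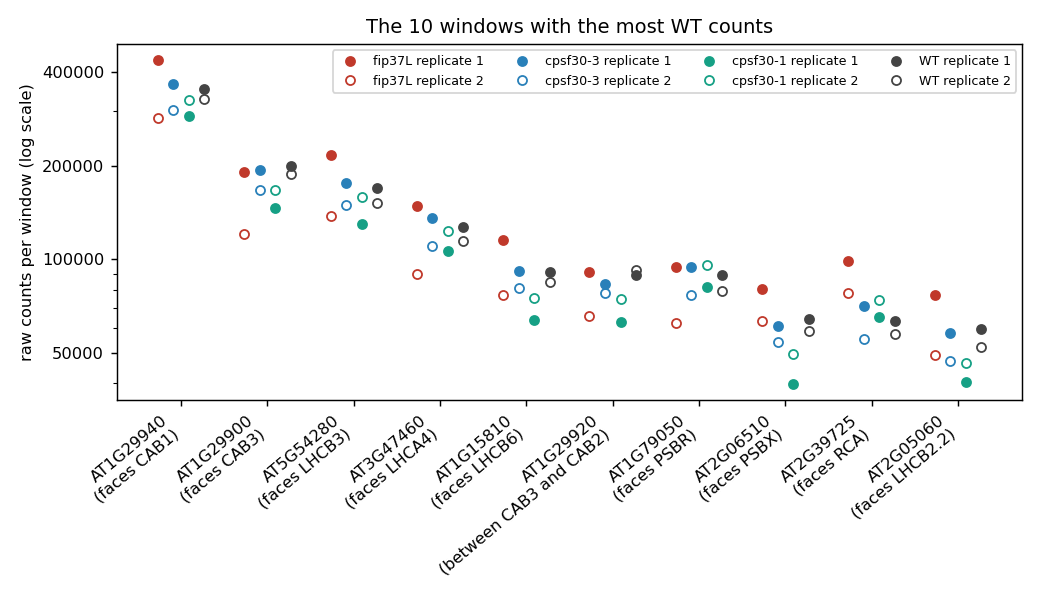
Raw counts (log scale) of the 10 windows with the most WT counts, with the gene each faces. Filled and open points are replicates 1 and 2 of *fip37L*, *cpsf30-3*, *cpsf30-1* and WT; the points of 1 window lie close together beside the spread over windows, from 436473 counts in AT1G29940 down to 39767 in AT2G06510.

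Over all members, the fold between the highest and the lowest of the 4 line means (TMM CPM) had a median of 1.39, against 1.71 in the other tested windows. It stayed under 1.25 in 322 members (27.9%, against 11.6% of the other tested windows) and under 1.5 in 742 (64.2%, against 35.1%). It reached 2 in 135 (11.7%, against 37.6%) and 4 in 17. The median fold between the 2 replicates of a member was 1.14 for *fip37L*, 1.07 for *cpsf30-3* and 1.05 for *cpsf30-1*, against 1.04 for WT, and in the other tested windows 1.25, 1.20 and 1.17, against 1.16. Replicates thus also lay closer together in the members, whose counts are larger, and how much of the narrower spread between lines goes with the count level was not tested. *fip37L* was the lowest line in 493 members and the highest in 351, *cpsf30-3* in 148 and 172 and *cpsf30-1* in 337 and 319, against 177 and 313 for WT. Because WT counts chose the members, the place of WT in this order is not free of that choice.

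**Figure D2:**
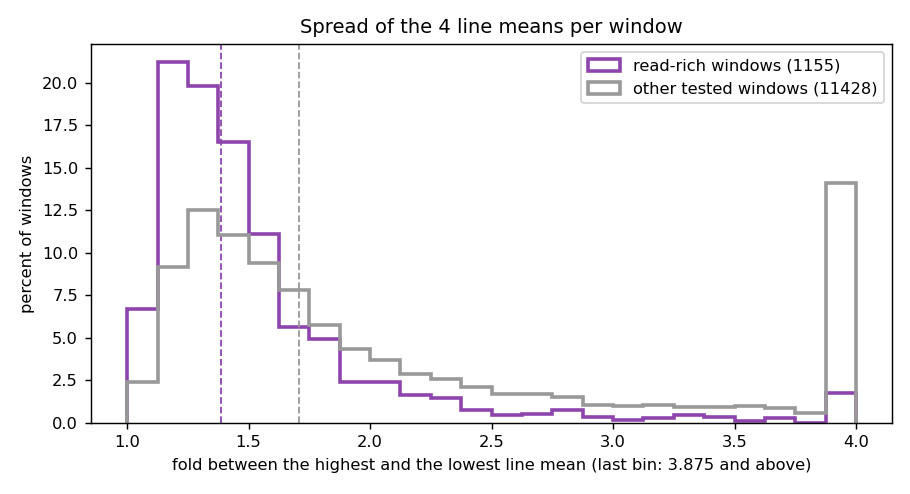
Percent of windows (vertical axis) by the fold between the highest and the lowest line mean (horizontal axis), for the 1155 read-rich windows and the 11428 other tested windows, with the medians dashed. The read-rich windows peak further left, with a median of 1.39 against 1.71.

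The 5 steadiest members, each over another gene, spanned at most 1.04-fold. AT1G15990 (CNGC7), over PnsB1, a subunit of the chloroplast NDH complex, held 2597 and 1954 counts in *fip37L*, with 2440 and 2017 counts in *cpsf30-3* and 2022 and 2389 in *cpsf30-1*, against 2473 and 2404 in WT. Its line means were 464.4 CPM in *fip37L*, 471.8 in *cpsf30-3* and 475.0 in *cpsf30-1*, against 479.1 in WT, a span of 1.03-fold. AT5G04150 (BHLH101), over GLU1, a ferredoxin-dependent glutamate synthase, spanned 1.03-fold around 1345 CPM in WT. AT3G11840 (PUB24) over a chaperonin gene, AT3G13672 over a protein kinase gene and AT4G01040 over TROL, a thylakoid protein, each spanned 1.04-fold. AT5G04150 lies behind an iron-deficiency regulator, but 409 of its 500 bases are exon of GLU1.

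Few members moved. Against WT, 28 rose and 22 fell in *fip37L* (2.42% and 1.90% of members), where 7.10% of all tested windows rose and 2.85% fell. In *cpsf30-3*, 6 rose and 4 fell, against a background of 1.33% and 0.159%. In *cpsf30-1*, 6 rose and 29 fell (0.519% and 2.51%), against a background of 11.0% and 2.57%. Of the 1155, 1069 were called in none of the 3 mutants, 78 in 1, 7 in 2 and 1 in all 3. The 3 comparisons share the WT libraries, and those libraries chose the members.

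By adjusted p alone, with no fold required, the counts were larger: 451 members for *fip37L* (39.0%), 26 for *cpsf30-3* (2.25%) and 301 for *cpsf30-1* (26.1%). Of all tested windows 20.7%, 1.96% and 21.8% passed, so by this rule the member share was the higher, by little in *cpsf30-3*. Counts were larger and replicates closer together in the members, and how much of the higher share goes with that was not tested. At a limit of 1.5-fold, 169 of the 451, 17 of the 26 and 99 of the 301 remained. Of all members, 83.0% lay within 1.5-fold of WT in the *fip37L* comparison, 95.1% in that of *cpsf30-3* and 90.9% in that of *cpsf30-1*. Over all tested windows these shares were 67.1%, 78.0% and 67.7%. The median log2 change over the members was -0.09 for *fip37L*, -0.02 for *cpsf30-3* and -0.04 for *cpsf30-1*, and over all tested windows 0.03, 0.00 and -0.03. Scaling by library size in place of TMM moved the median of all tested windows by -0.12 in *fip37L* against WT and by -0.13 in *fip37L* against *cpsf30-1*. Under that scaling 20 members rose and 31 fell in *fip37L* against WT, and the split thus turned.

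Leaving out 1 library at a time kept 23 of the 50 *fip37L* calls and 23 of the 35 *cpsf30-1* calls in all 4 fits without a library of the lines compared. None of the 10 *cpsf30-3* calls remained in all 4. Without WT replicate 1 or without WT replicate 2, edgeR called 0 members in *cpsf30-3*, although 131 and 121 had an unadjusted p under 0.05 there, and without *cpsf30-3* replicate 1 it called 2. Without either *fip37L* replicate it called 25. With all libraries DESeq2 called all 10 of these windows as well.

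**Figure D3:**
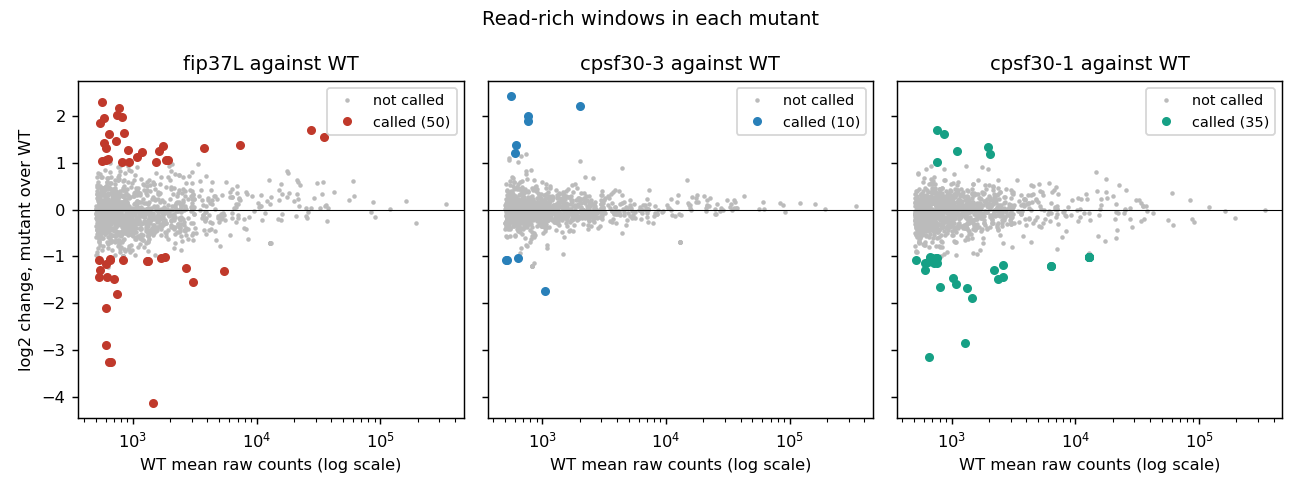
The log2 change of each read-rich window in *fip37L*, *cpsf30-3* and *cpsf30-1* over WT (vertical axis), against its WT mean in raw counts (log scale). Coloured points are called windows, 50, 10 and 35 in number, and most lie toward the low end of the count range.

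The neighbours formed a few abundant groups, as defined by the symbol or product name of the overlapping gene. Windows over light-harvesting and photosystem genes numbered 43, covered 33 genes and alone held 35.0% and 34.4% of all counts in the 2 WT libraries. These are genes of green tissue, and the labels give seedlings. Their median fold between the highest and the lowest line was 1.23, and 36 of the 43 stayed under 1.5-fold. No window of this group was called against WT in any mutant by edgeR or by DESeq2. At an unadjusted edgeR p under 0.05, 21 of them passed in *fip37L* (48.8%, against 35.0% of all tested windows and 55.7% of all members), 3 in *cpsf30-3* (6.98%, against 18.6% and 23.8%) and 20 in *cpsf30-1* (46.5%, against 35.3% and 40.8%). In whole seedlings, fewer cells of a type and less RNA per cell cannot be told apart. Between mutants edgeR called a single window of the group: AT1G52240, facing the photosystem I subunit PSAH2, held 35333 and 26883 counts in *fip37L* and 13459 and 15563 in *cpsf30-1*, a log2 difference of 1.02 ± 0.07 (SE, edgeR adjusted p = 4.2e-05), where 7.70% of all tested windows were called higher. The difference lies at the 2-fold limit, and DESeq2 called no window of the group in this comparison.

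Windows over ribosomal protein genes held the next largest share of WT counts among the named groups (4.35% and 4.45%), with 90 windows over 80 genes, a median WT mean of 1801.5 counts and a median fold between lines of 1.28. Of these 90, 78 stayed under 1.5-fold, and 2 rose, both in *cpsf30-1* and both beside AT2G27720. The 17 windows over carbon fixation genes, a group that by name also took in carbonic anhydrases, held 3.74% and 3.71% of WT counts and spread more, with a median fold of 1.52. Of these, 2 fell in *cpsf30-1*, both over CP12-2, a regulator that binds Calvin cycle enzymes in the dark. AT3G62420 held 7807 and 6720 *fip37L* counts, 6315 and 5340 *cpsf30-3* counts and 2103 and 2923 *cpsf30-1* counts, against 6768 and 5940 in WT (log2 change in *cpsf30-1* -1.21 ± 0.11 SE), and AT3G62400 on the other flank fell by 1.18 ± 0.11. Translation factors (12 windows, median fold 1.24) and histones (9 windows, 1.35) had 0 calls against WT by edgeR and by DESeq2. At an unadjusted edgeR p under 0.05, 5, 2 and 5 of the translation factor windows (41.7%, 16.7% and 41.7%) and 7, 1 and 5 of the histone windows (77.8%, 11.1% and 55.6%) passed in *fip37L*, *cpsf30-3* and *cpsf30-1*, beside the same shares of all tested windows and of all members given above. The 938 windows over other genes had a median fold of 1.40, and the 44 with no overlapping gene, unplaced ones included, 1.82.

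In *fip37L* the 5 largest rises were in windows over NHL3, TT4, ATAF1, NF-YB2 and ABI1. AT5G13940 faces TT4, the chalcone synthase that begins flavonoid synthesis, whose transcript covers all 500 bases. It held 2247 and 4073 *fip37L* counts, 514 and 725 *cpsf30-3* counts and 1325 and 1475 *cpsf30-1* counts, against 752 and 802 in WT, a log2 change in *fip37L* of 2.17 ± 0.37 (SE). AT5G06310 (AtPOT1b) faces NHL3, a membrane protein gene of the pathogen response, and held 4354 and 1265 counts in *fip37L*, with 2484 and 2981 counts in *cpsf30-3* and 336 and 794 in *cpsf30-1*, against 606 and 520 in WT. It rose by 2.28 ± 0.42 in *fip37L* and by 2.41 ± 0.42 in *cpsf30-3*. Its *fip37L* and *cpsf30-3* libraries did not overlap those of WT, which the rule for naming required.

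AT1G01725 faces ATAF1, a NAC transcription factor gene, AT5G47650 (NUDT2) faces NF-YB2, a nuclear factor Y subunit, and AT4G26070 (MEK1) faces ABI1, a phosphatase that restrains abscisic acid signalling. Their log2 changes in *fip37L* were 2.01 ± 0.27, 1.97 ± 0.33 and 1.95 ± 0.38. In these 3, *fip37L* replicate 1 was far above replicate 2: AT1G01725 held 4407 and 1640 counts, AT5G47650 5087 and 1470, and AT4G26070 3715 and 961, against 713 and 774, 836 and 792, and 662 and 512 in WT. Without *fip37L* replicate 1 the changes were 1.43, 1.14 and 1.00, and that of AT5G06310 was 1.46. Without *fip37L* replicate 2 the change of AT5G13940 was 1.37. The calls of AT5G13940 and AT5G47650 were lost without WT replicate 1 (edgeR adjusted p = 0.056 and 0.053), and those of AT5G06310 and AT4G26070 without either WT replicate (at most 0.065 and 0.077).

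The 5 largest falls in *fip37L* were each kept in all 4 fits with a library left out. AT3G05725, over 255 exon bases of AT3G05727, a same-strand gene of the SLR1-binding pollen coat protein family, held 120 and 46 *fip37L* counts, 862 and 554 *cpsf30-3* counts and 341 and 382 *cpsf30-1* counts, against 1470 and 1455 in WT. The log2 change was -4.12 ± 0.24 in *fip37L* and -1.88 ± 0.21 in *cpsf30-1*. No mutant library reached either WT library, which the rule for naming required of *fip37L* and *cpsf30-1*. AT5G47490 faces PME5, a pectin methylesterase gene, and held 91 and 65 counts in *fip37L*, with 485 and 400 counts in *cpsf30-3* and 297 and 354 in *cpsf30-1*, against 670 and 537 in WT, a change of -2.90 ± 0.12 in *fip37L*. AT1G76780 faces IGMT5, an indole glucosinolate methyltransferase gene, and fell by 2.11 ± 0.13, with 155 and 113 counts in *fip37L* and 624 and 575 in WT.

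A pair of these falls lay near each other, AT4G22485 at chr4:11844006-11844505 and AT4G22510 at chr4:11854309-11854808. AT4G22485 was the only member called in the same direction in all 3 mutants. It held 90 and 41 *fip37L* counts, 349 and 235 *cpsf30-3* counts and 237 and 306 *cpsf30-1* counts, against 617 and 663 in WT, with log2 changes of -3.26 ± 0.20, -1.04 ± 0.17 and -1.11 ± 0.17. Its *cpsf30-3* call was lost in each of the 4 fits with a library left out (edgeR adjusted p of up to 0.23). AT4G22510, which overlaps no other gene, held 96 and 40 counts in *fip37L*, with 324 and 322 counts in *cpsf30-3* and 219 and 385 in *cpsf30-1*, against 675 and 653 in WT. It fell by 3.26 ± 0.25 in *fip37L* and by 1.02 ± 0.22 in *cpsf30-1*, where the call was lost without *cpsf30-1* replicate 1 or either WT replicate (adjusted p of up to 0.10). In both windows every mutant library lay below both WT libraries, which the rule for naming required at least of *fip37L*.

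In *cpsf30-3* the called rises were AT5G06310 (above), AT3G15460, AT5G19130, AT5G20260 and AT5G14130 among the 5 largest. AT3G15460 faces AT3G15450, which encodes a protein with YGL and LRDR motifs, and held 5664 and 1707 *fip37L* counts, 10848 and 6804 *cpsf30-3* counts and 3172 and 5282 *cpsf30-1* counts, against 2181 and 1870 in WT. It rose by 2.22 ± 0.35 in *cpsf30-3* and by 1.18 ± 0.34 in *cpsf30-1*. AT5G20260 faces DIN10, a dark-inducible raffinose synthase family gene, and held 1686 and 725 counts in *fip37L*, with 3758 and 1601 counts in *cpsf30-3* and 1802 and 2774 in *cpsf30-1*, against 794 and 737 in WT, with changes of 1.88 ± 0.32 in *cpsf30-3* and 1.70 ± 0.32 in *cpsf30-1*. AT5G19130, facing an aspartyl protease gene, rose by 1.99 ± 0.22 in *cpsf30-3*, and AT5G14130, facing a major facilitator transporter gene, by 1.38 ± 0.20. In all 4 of these windows both *cpsf30-3* libraries were above both WT libraries, which the rule for naming required. Each of these *cpsf30-3* calls was lost without either WT replicate (adjusted p of up to 0.25). Those of AT5G06310 and AT3G15460 were also lost without either *cpsf30-3* replicate (up to 0.12 and 0.091), and those of AT5G20260 (1.33, adjusted p = 0.098) and AT5G14130 (0.077) without *cpsf30-3* replicate 1. The *cpsf30-1* call of AT5G20260 was lost without either WT replicate (up to 0.056), and that of AT3G15460 in each of the 4 fits (up to 0.20).

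The 4 falls in *cpsf30-3* were AT1G32440, AT5G66570, AT5G27650 and AT4G22485. AT1G32440 (PKp3) faces NRT1.5, a transporter that loads nitrate into the xylem, and held 684 and 608 *fip37L* counts, 225 and 347 *cpsf30-3* counts and 1157 and 1254 *cpsf30-1* counts, against 1070 and 1038 in WT (log2 change in *cpsf30-3* -1.74 ± 0.23). The window behind PSBO1 (AT5G66570), a subunit of the oxygen-evolving complex, overlaps no other gene and held 471 and 306 counts in *fip37L*, with 231 and 216 counts in *cpsf30-3* and 349 and 372 in *cpsf30-1*, against 521 and 502 in WT (-1.08 ± 0.11 in *cpsf30-3*). AT5G27650, facing noncoding exon bases of the protease gene DEG14, held 819 and 841 *fip37L* counts, 232 and 221 *cpsf30-3* counts and 210 and 293 *cpsf30-1* counts, against 546 and 490 in WT (-1.08 ± 0.17). All 3 calls were lost without either WT replicate (adjusted p of up to 0.13, 0.093 and 0.20), those of AT5G66570 and AT5G27650 also without *cpsf30-3* replicate 1, and that of AT5G27650 also without replicate 2.

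In *cpsf30-1* the 5 largest falls were in AT2G18450, AT2G16365, AT3G05725, AT1G17870 and AT5G05965. AT2G18450 (SDH1-2) lies on the same strand as GUT15, a noncoding RNA gene, and held 1352 and 1109 counts in *fip37L*, with 601 and 358 counts in *cpsf30-3* and 40 and 96 in *cpsf30-1*, against 685 and 617 in WT. Its change in *cpsf30-1* was -3.14 ± 0.26, and both *cpsf30-1* libraries lay below all the others. The rule for naming required only that they lie below WT. AT2G16365 lies over AT2G16367, a gene without a product name, and held 1525 and 2056 *fip37L* counts, 946 and 829 *cpsf30-3* counts and 130 and 199 *cpsf30-1* counts, against 1378 and 1205 in WT, a change of -2.85 ± 0.26. AT1G17870 (EGY3), facing a Kunitz protease inhibitor gene, held 351 and 413 counts in *cpsf30-1* and 1426 and 1238 in WT (-1.67 ± 0.10), and AT5G05965, facing a lipid-transfer family gene, 211 and 256 in *cpsf30-1* and 849 and 763 in WT (-1.65 ± 0.19). Together with AT3G05725 these 5 calls were kept in all 4 fits with a library left out.

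The rises in *cpsf30-1* included 3 neighbouring windows around AT2G27720, which encodes an acidic ribosomal protein of the large subunit. AT2G27710, upstream of it on the same strand and over 243 noncoding exon bases of it, held 1076 and 728 counts in *fip37L*, with 805 and 903 counts in *cpsf30-3* and 2385 and 2416 in *cpsf30-1*, against 861 and 882 in WT. AT2G27730, which faces it, held 2017 and 1493 *fip37L* counts, 1795 and 1441 *cpsf30-3* counts and 4396 and 4528 *cpsf30-1* counts, against 2022 and 1911 in WT. AT2G27720 itself, whose window faces AT2G27730, held 687 and 522 counts in *fip37L*, with 973 and 895 counts in *cpsf30-3* and 2279 and 2433 in *cpsf30-1*, against 1176 and 1019 in WT. The *cpsf30-1* libraries were the highest in all 3 windows, with log2 changes of 1.60 ± 0.14, 1.32 ± 0.09 and 1.24 ± 0.10, each kept in all 4 fits.

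**Figure D4:**
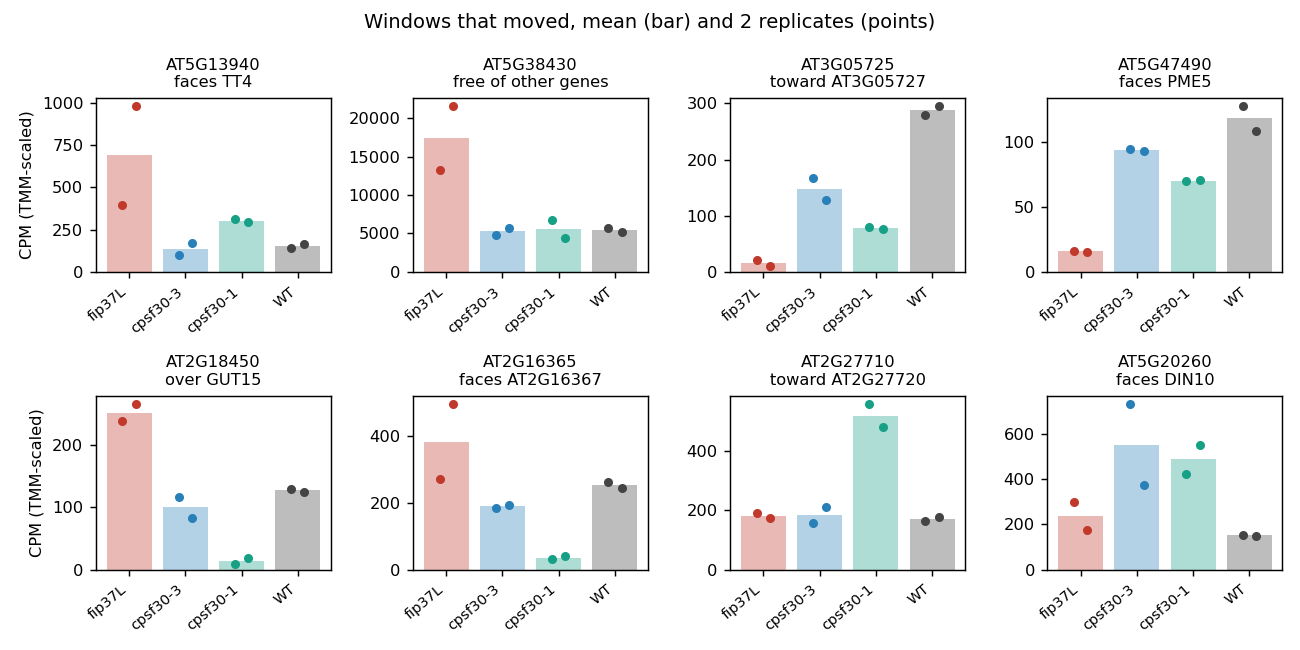
CPM scaled by TMM factors in 8 windows that moved in at least 1 mutant, for *fip37L*, *cpsf30-3*, *cpsf30-1* and WT, with bars for the mean of 2 replicates and points for each. AT3G05725 and AT5G47490 are lowest in *fip37L* (16.1 and 15.9 CPM on average), AT2G18450 and AT2G16365 in *cpsf30-1* (14.2 and 35.1 CPM), and AT2G27710 is highest in *cpsf30-1* (520.3 CPM).

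The comparisons between mutants use no WT value in their contrast, but WT counts still chose the members. Their shares beside those of all tested windows are therefore a description, and what part goes with that choice was not tested. In *cpsf30-1* against *cpsf30-3*, 4 members were higher and 19 lower, where 6.19% of all tested windows were higher and 1.45% lower. In *fip37L* against *cpsf30-3*, 22 were higher and 26 lower, against a background of 4.14% and 2.59%. In *fip37L* against *cpsf30-1*, 60 were higher and 28 lower, against a background of 7.70% and 10.2%, a split that ran toward higher in the members and toward lower over all tested windows. Under library size scaling this last split was 45 higher and 45 lower. Leaving out 1 library kept 16 of 23, 21 of 48 and 65 of 88 of these calls in all 4 fits of the lines compared. Without *fip37L* replicate 1 the second comparison had 83 calls in place of 48.

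Between *fip37L* and *cpsf30-1* the largest higher values were in AT2G18450, over GUT15, higher in *fip37L* by 4.13 ± 0.27 on the log2 scale (SE, edgeR adjusted p = 3.2e-05), and AT2G16365, higher by 3.44 ± 0.26 (adjusted p = 5.1e-05). AT3G05725 and AT4G22510 were lower in *fip37L* by the same 2.24 (SE 0.24 and 0.25, adjusted p = 0.00023 and 0.00031). AT5G47650, facing NF-YB2, was higher in *fip37L* by 2.64 ± 0.34 (adjusted p = 0.00066).

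Between *fip37L* and *cpsf30-3*, AT3G05725 was lower in *fip37L* by 3.17 ± 0.24 (edgeR adjusted p = 0.0007) and AT5G47490, facing PME5, by 2.56 ± 0.12 (adjusted p = 3.5e-05). AT5G13940, facing TT4, was higher by 2.36 ± 0.37 (adjusted p = 0.0042), and by 1.57 without *fip37L* replicate 2. Between *cpsf30-1* and *cpsf30-3*, AT2G18450 and AT2G16365 were lower in *cpsf30-1* by 2.79 ± 0.26 and 2.42 ± 0.26 (adjusted p = 0.0004 and 0.0007). AT1G32440, facing NRT1.5, was higher by 2.07 ± 0.23 (adjusted p = 0.0008). AT5G06310, facing NHL3, was lower by 2.31 ± 0.42 (adjusted p = 0.0099), a call lost without *cpsf30-3* replicate 2 (adjusted p = 0.064) or *cpsf30-1* replicate 1 (0.095).

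AT3G19700 (IKU2) moved in opposite directions. It lies over coding bases of BCAT4, an aminotransferase of methionine-derived glucosinolate synthesis, and held 2136 and 2281 *fip37L* counts, 474 and 640 *cpsf30-3* counts and 257 and 406 *cpsf30-1* counts, against 1143 and 1029 in WT. It rose by 1.12 ± 0.23 in *fip37L*, a call lost without *fip37L* replicate 2 (0.82) or either WT replicate (adjusted p of up to 0.079), and fell by 1.59 ± 0.24 in *cpsf30-1*. The difference between *fip37L* and *cpsf30-1* was 2.71 ± 0.25 (adjusted p = 0.00012), and that between *fip37L* and *cpsf30-3* 1.94 ± 0.24 (adjusted p = 0.0018).

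For 24 of the 35 members free of other genes (68.6%), genes on the 2 sides within 25000 bases shared an exact exon run of at least 30 bases, and for 18 the run was at least 75 bases, the length of a read. The share was 17.2% in the other free tested windows and 3.33% in members that overlap a gene, against 5.88% in other tested windows that do. Several of the 24 windows lie between the same 2 genes, such as LHCB2.2 and LHCB2.1, so they are not separate cases. These lengths and distances were chosen after the counts were seen. The way spliced reads were assigned to windows is not stated, and copies that share a run this long cannot be told apart by reads inside it.

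The LHCB2 pair, encoding antenna proteins of photosystem II, showed this most fully. The 5 free windows AT2G05080, AT2G05082, AT2G05084, AT2G05087 and AT2G05090, spread over 11891 bases between LHCB2.2 and LHCB2.1, held the same counts within 1: 11151 and 4585 counts in *fip37L*, with 8677 and 6177 counts in *cpsf30-3* and 6195 and 5254 in *cpsf30-1*, against 13212 and 12502 in WT. The window behind LHCB2.1 (AT2G05100), which faces into the same interval, held 13303 and 12586 in WT. Outside the pair, the windows AT2G05070 and AT2G05110 held 0 to 3 counts and 0 counts. The 5 identical windows make up 5 of the 6 free windows called down in *cpsf30-1* (AT2G05082, log2 change -1.02 ± 0.24), so these 5 calls rest on the same counts. Without *cpsf30-1* replicate 2 the change was -0.81 (adjusted p = 0.11), and the calls were lost without either WT replicate as well.

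The Rubisco small subunit array on chromosome 5 gave the largest free windows to move. AT5G38420, between RBCS2B and RBCS3B, held 101780 and 93841 *fip37L* counts, 41434 and 33847 *cpsf30-3* counts and 28527 and 39264 *cpsf30-1* counts, against 38866 and 31703 in WT. AT5G38430, between RBCS1B and RBCS2B, held 74705 and 89538 counts in *fip37L*, with 24794 and 24483 counts in *cpsf30-3* and 28510 and 22077 in *cpsf30-1*, against 29657 and 25363 in WT. Both rose in *fip37L*, by 1.55 ± 0.12 and 1.69 ± 0.24, kept in all 4 fits, and the *fip37L* libraries did not overlap those of any other line. The window behind RBCS3B (AT5G38410), the last copy, held 0 to 4 counts.

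Other arrays followed the same outline. In the 7 windows from AT2G05450 to AT2G05500, beyond the glycine-rich protein gene GRP9, every library had an identical count in all 7: 717 and 138 *fip37L* counts, 231 and 409 *cpsf30-3* counts and 515 and 653 *cpsf30-1* counts, against 1105 and 553 in WT. These were also the members whose replicates differed most, and none was called in any comparison by edgeR or DESeq2. AT3G27830, AT3G27835 and AT3G27840, between the ribosomal genes RPL12-A and RPL12-C, held 634 and 640, 605 and 617, and 601 and 617 counts in WT, while the window behind RPL12-C (AT3G27850) held 1 to 6 in all libraries. AT1G70840 and AT1G70850, behind the latex protein-like genes MLP31 and MLP34, held 832 and 379, and 830 and 380, in *fip37L*, against 1481 and 1134, and 1483 and 1138, in WT. Both were called down in *fip37L* (-1.10 ± 0.23 each), calls lost without *fip37L* replicate 2 (-0.81 each) or WT replicate 1 (adjusted p = 0.095). Over all members, 38 pairs matched within 2% or 3 counts in every library, 20 of them more than 1000 bases apart. Most of these 20 lie within the LHCB2 and GRP9 stretches and repeat the same counts.

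The ends of the runs that copies share are printed to show how alike they are (RefSeq TAIR10.1, 5′ to 3′ on the gene's strand). Capitals mark 22 bases common to both copies and lower case the next 8 bases, the first of which differs between the copies. In the LHCB2, CAB and RBCS pairs the rest of the lower case is the same, while the RPL12 pair differs at further bases. The longest run shared by the coding sequences was 152 bases for LHCB2.2 and LHCB2.1, 116 for CAB3 and CAB2, which flank the window AT1G29920 and are 95.7% identical in coding sequence, 89 for RBCS2B and RBCS1B, which are 97.3% identical, and 255 for RPL12-A and RPL12-C. The stretches lie at chr2:1799432-1799461 and chr2:1823445-1823474, chr1:10473039-10473068 and chr1:10475685-10475714, and chr5:15381292-15381321 and chr5:15384439-15384468, all on the minus strand, and at chr3:10319131-10319160 and chr3:10325448-10325477 on the plus strand.
LHCB2.2: CTACTAACTTTGTCCCCGGAAAgtaattat
LHCB2.1: CTACTAACTTTGTCCCCGGAAAttaattat
CAB3: GTCCATTCTCTGGCGAGTCACCgagctacc
CAB2: GTCCATTCTCTGGCGAGTCACCcagctacc
RBCS2B: AAGAATGCAAGAAGGAGTACCCtggcgcct
RBCS1B: AAGAATGCAAGAAGGAGTACCCgggcgcct
RPL12-A: GCTAAAGTCTCCATTGCTTAAGgtttttat
RPL12-C: GCTAAAGTCTCCATTGCTTAAGtttcttca

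**Figure D5:**
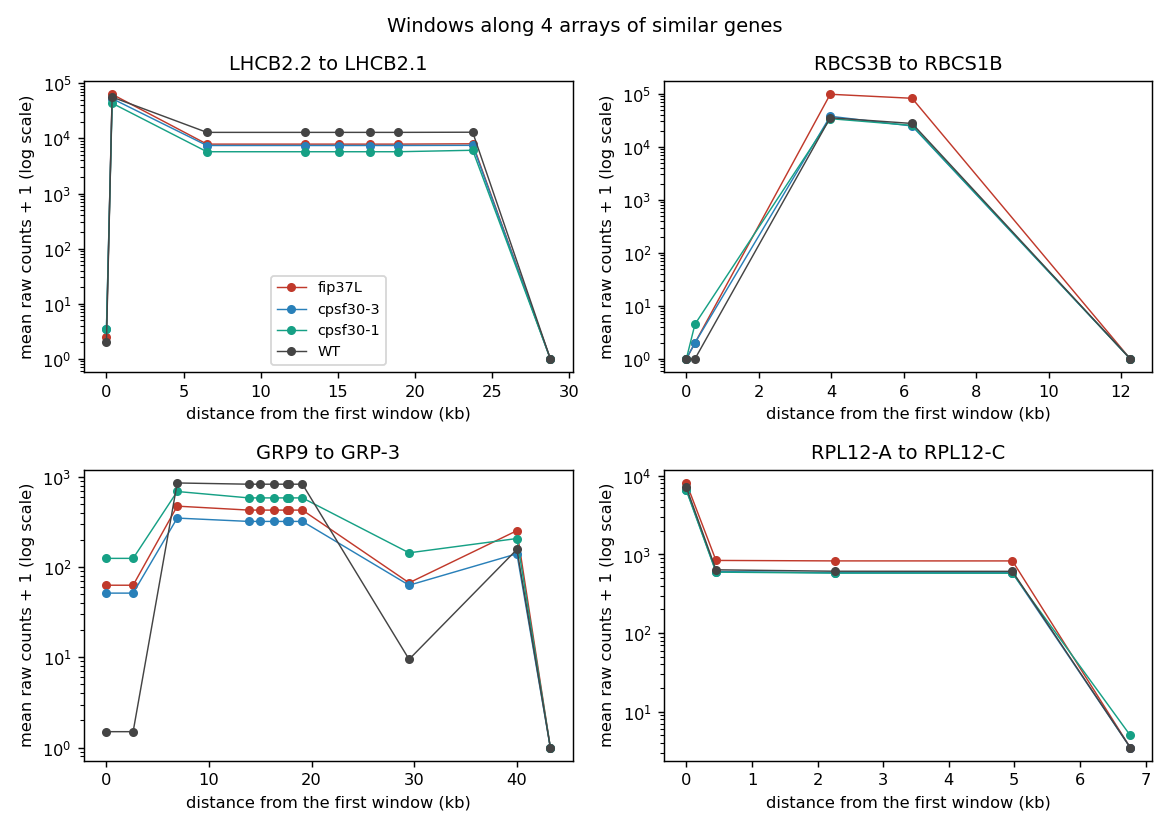
Mean raw counts plus 1 (log scale) of the windows along 4 arrays of similar genes, by distance from the first window in kb, for *fip37L*, *cpsf30-3*, *cpsf30-1* and WT (means of 2 replicates). In the LHCB2, RBCS and RPL12 arrays counts are similar between the copies and drop to 6 or fewer per library beyond the last copy. In the GRP array WT counts fall from 1105 and 553 at AT2G05490 to 9 and 8 at AT2G05510, with 170 and 142 at AT2G05520. In the RBCS array *fip37L* lies above the other lines.

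The members are not independent of each other in other ways. On the genome, 54 members overlapped another member, leaving 1118 separate blocks, and 112 members shared their overlapping gene with another. Where a member locus had further transcript models with the same end, the counts were identical in 140 of 148 models. A further 266 models of member loci had another end, and 29 of these fell under 500 WT counts. Of the 9 members that could not be placed, 5 matched the counts of a numbered neighbour: AT2G05500, AT2G43018, AT3G62422, AT4G19112 and AT5G09672 differed from it by at most 1 count in every library. AT5G35631 did not. It held 8902 and 7109 counts in *fip37L*, with 7939 and 6689 counts in *cpsf30-3* and 7765 and 8945 in *cpsf30-1*, against 7507 and 7104 in WT, beside the window of the glutamine synthetase gene GS2 (AT5G35630) with 46 and 43, 46 and 22, and 30 and 42, against 17 and 18 in WT. AT2G33440, AT2G36881 and AT3G52302 likewise had no matching neighbour.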

How the data were processed

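The 8 libraries of 9-day-old seedlings (poly(A) RNA, stranded kit, single-end reads of 75 bases) comprised 2 each of *fip37L*, *cpsf30-3*, *cpsf30-1* and WT. Per the study's methods, reads from organelle and rRNA genes were removed (Bowtie2 2.3.4) and the rest mapped to TAIR10 (TopHat2 2.0.7; transcripts were assembled with Cufflinks 2.2.1). The authors deposited raw counts, not normalized, for the 500 bases downstream of 39087 transcript models; the study calls the same window measure strand-specific for another mutant, but whether these libraries were counted by strand, and how gapped alignments were handled, is not given in the sources used here. The windows of AT2G05475 (plus strand) and AT2G05480 (minus strand) held identical counts in every library. If strand was not used, reads of facing genes fall in the window, and the rule used was not tested.

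1 model per locus was kept (31109). Counts were tested with edgeR 4.0.16 in R 4.3.3 (TMM, low-count filter by group, quasi-likelihood, 4 groups, 4 residual degrees of freedom, two-sided, Benjamini-Hochberg over 12583 windows), with DESeq2 1.42.0 as an alternative. Only the edgeR fit was tried on simulated data. The fold between lines uses TMM-scaled CPM. The exact interval treats windows as independent draws, and the floor of 3 counts (0.530 to 0.722 CPM per library) covers counting error only. Windows were placed with the RefSeq TAIR10.1 annotation (38527 models; 493 loci were not placed); Python 3.11.15 was used for tables. Near-identical copies and overlapping genes make a window's source uncertain.

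Named windows are the 10 with the highest WT mean; up to 5 rises and 5 falls per mutant, with both mutant libraries on 1 side of WT; those called alike in all 3 mutants; the 5 steadiest; up to 3 per direction between mutants; 3 whose replicates differ most; and 3 on each side of the limit. Others were chosen after their values were seen: gene arrays, CP12-2, PSAH2, unplaced windows and those named under other observations. The members and lists were chosen with earlier results of these data known. Alternatives were library size scaling, other filters, thresholds and count limits, a fit of only the 2 lines, a replicate block and leaving out each library.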

Additional observations from a re-analysis of the deposited data

How the results depend on the processing

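No named change turned round under any alternative. With a library of the compared lines left out, part of the named calls were lost, as given above for single windows. The number of read-rich windows was 1987 at a limit of 300 WT counts and 543 at 1000, holding 84.8% and 69.9% of WT counts, against 78.4% at 500 and 77.5% with the limit on the mean of all 8 libraries. Calls are listed as *fip37L*, *cpsf30-3* and *cpsf30-1* against WT, then *cpsf30-1* against *cpsf30-3*, *fip37L* against *cpsf30-3* and *fip37L* against *cpsf30-1*. They were 50, 10, 35, 23, 48 and 88 as reported. By adjusted p alone they were 451, 26, 301, 152, 427 and 589, and with a 1.5-fold limit 169, 17, 99, 61, 173 and 291. At 300 counts they were 82, 17, 55 and 39 in the first 4 and 149 in the last, and at 1000 counts 19, 2, 19, 13, 13 and 31. *cpsf30-3* against WT had 25 calls with no filter on low counts, 25 with only the 2 lines and 20 with the limit on all 8 libraries, and *fip37L* against *cpsf30-3* had 30 with only the 2 lines. Leaving out 1 library gave 36 to 75, 0 to 25, 25 to 36, 17 to 26, 32 to 83 and 82 to 120 calls, a share of WT counts of 78.0% to 79.1%, and a median fold between lines of 1.386 to 1.404. Library size scaling gave a median fold of 1.425. The causes of these shifts were not tested. With the replicate number as a block the calls were 50, 10, 37, 24, 45 and 88; same-numbered libraries of the compared lines correlated at -0.089 to 0.044, so they share only a number. The median replicate fold of a line was 1.04 to 1.14 in the members. With 2 libraries per line, the smallest detectable change was not computed. Only windows with few reads approach the floor.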

Other observations

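The following windows lie outside the rule for naming and were chosen after their values were seen, so their values are a description. Beside AT3G19700 over BCAT4, 5 other windows, picked for the names of their neighbours, were called higher in *fip37L* than in *cpsf30-1*, where 7.70% of all tested windows were. AT1G76780, facing the indole glucosinolate gene IGMT5, was called lower in the same comparison (log2 difference -1.77, edgeR adjusted p = 4.4e-05). AT5G14210, facing IMD1, an isopropylmalate dehydrogenase of methionine chain elongation, held 1089 and 1191 counts in *fip37L*, with 373 and 435 counts in *cpsf30-3* and 301 and 367 in *cpsf30-1*, against 764 and 742 in WT. AT2G43090, over IPMI2, an isopropylmalate isomerase subunit of the same chain elongation, held 836 and 1163 *fip37L* counts, 265 and 418 *cpsf30-3* counts and 242 and 357 *cpsf30-1* counts, against 734 and 606 in WT. The log2 differences between *fip37L* and *cpsf30-1* were 1.73 in both, 1.72 for AT2G31800 over the glycosyltransferase gene AT2G31790, and 1.28 and 1.77 for AT1G74090 and AT1G74100, over the sulfotransferase genes SOT16 and SOT18, whose windows overlap.

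Windows facing P5CS1, ABF3 and MYBR1 rose in *fip37L* with replicate 1 well above replicate 2. AT2G39795, facing P5CS1, the enzyme that begins proline synthesis, held 14419 and 4484 counts in *fip37L*, with 4733 and 4268 counts in *cpsf30-3* and 2119 and 2517 in *cpsf30-1*, against 3788 and 3703 in WT. AT4G34020, facing the transcription factor gene ABF3, held 2919 and 1120 *fip37L* counts, 937 and 802 *cpsf30-3* counts and 449 and 553 *cpsf30-1* counts, against 776 and 683 in WT. AT5G67310, facing MYBR1, held 3092 and 902 counts in *fip37L* and 708 and 570 in WT. Growth medium and genotype cannot be told apart for these values either.

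Both windows beside FD1, a leaf ferredoxin gene, rose in *fip37L*, AT1G10950 by 1.22 and AT1G10970 by 1.38 on the log2 scale. AT1G10970 held 18497 and 17342 counts in *fip37L*, with 9762 and 8271 counts in *cpsf30-3* and 4710 and 6085 in *cpsf30-1*, against 7581 and 6986 in WT. In *cpsf30-1*, AT1G76110, over the plastocyanin gene PETE1 on the same strand, fell by 1.44, with 734 and 1040 counts in *cpsf30-1* and 2753 and 2497 in WT. AT4G14900, over the cysteine synthase gene OASA1 on the same strand, fell by 1.48, with 688 and 874 in *cpsf30-1* and 2494 and 2268 in WT.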
